A study of Mus musculus with 2 samples.

Results

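Nonsense-mediated decay removes messenger RNAs whose coding sequence ends too early, and the exon junction complex marks where introns were spliced out. A total of 9 genes that encode factors of these systems were followed here, Upf1, Upf2, Upf3a, Upf3b, Smg1, Smg5, Smg6, Eif4a3 and Casc3, chosen by name from the 10036 genes whose RefSeq transcripts were measured in both libraries. RNA came from N2A cells, a mouse neuroblastoma line, and both conditions shared the line, the medium and Lipofectamine 2k as the carrier of the transfected DNA. The control cells received the control shRNA shControl and the knockdown cells received shptbp1, an shRNA against the splicing regulator Ptbp1, and RNA was taken after 3 days. Each condition was 1 strand-specific library of poly(A) RNA read as pairs of 100 bases. With 1 library per condition there was no replicate check, so the values describe these libraries, and intervals cover counting error only.

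As background, the helicase UPF1 is the central factor of the pathway, and UPF2 bridges it to UPF3A or UPF3B, which contact the exon junction complex. SMG1 is the kinase that phosphorylates UPF1, SMG5 is an adaptor that binds phosphorylated UPF1, and SMG6 is the endonuclease that cuts the target RNA. EIF4A3 is the RNA-clamping helicase at the core of the exon junction complex and CASC3, also called MLN51 or Barentsz, is a core partner. Exons that hold a premature stop when they are included or skipped expose a transcript to this decay, and PTBP1 is known to control such exons in some of its targets.

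The sequences below are those of alternative segments in these genes, read from the mm9 reference (NCBIM37) in the direction of the transcript. The first is an Upf1 coding exon, chr8:72863881-72863998 on the minus strand, whose capitals mark 33 bases that are included only when the downstream of its 2 donors is used. It is shown because it was the only segment of the 9 genes whose inclusion met both criteria used below. The last 100 bases of the intron before it and the first 20 bases of the intron after it follow.
Upf1 exon: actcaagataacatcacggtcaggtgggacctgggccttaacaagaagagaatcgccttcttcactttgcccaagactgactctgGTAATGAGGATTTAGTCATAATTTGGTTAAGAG
Upf1 upstream intron: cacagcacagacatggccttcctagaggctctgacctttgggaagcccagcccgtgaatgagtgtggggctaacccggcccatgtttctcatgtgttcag
Upf1 downstream intron: gtgattttaagttttaaaat

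The other segments are the stretches between competing splice sites, in capitals, with the flanking bases in lower case. They are shown because the choice between sites could be counted in junction reads. They lie at chr2:5967914-5967966 in Upf2, chr3:88153003-88153083 in Smg5 and chr11:98672227-98672300 in Casc3, all on the plus strand.
Upf2 acceptor: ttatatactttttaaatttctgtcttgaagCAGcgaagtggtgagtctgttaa
Smg5 acceptor: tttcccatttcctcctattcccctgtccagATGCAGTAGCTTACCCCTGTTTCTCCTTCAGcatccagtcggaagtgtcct
Casc3 donor: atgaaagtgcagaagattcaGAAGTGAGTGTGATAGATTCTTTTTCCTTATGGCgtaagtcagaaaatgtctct

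The Ptbp1 transcript was checked first. Its RefSeq level was 438 ppm, in parts per 1000000 of the summed depth of a library, in the control and 132 in the knockdown library, a log2 ratio of -1.73, and its junction reads gave -1.58, with all 16 counted junctions lower. The deposited tables held 74382387 junction reads for the control and 58295142 for the knockdown. Markers of sympathetic neuroblastoma were present in both libraries, among them the transmitter enzyme gene Dbh at 38.2 ppm in the control and 154 in the knockdown library. Of the 10 genes on that marker list 8 had enough junction reads, and 3 of them, Dbh, Gata3 and Th, were at least 1.5-fold higher in the knockdown library. The leukocyte genes Cd3e and Ptprc had 0 junction reads in both libraries and Cd68 had 19 in the control and 23 in the knockdown library. The astrocyte gene Aqp4 had 0 in both and Gfap had 7 and 2, the endothelial gene Pecam1 had 246 and 250, and the fibroblast gene Col1a1 had 28 and 74. The part of the Dbh difference in the results below was not tested.

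Expression of the 9 genes was read in 3 ways, because the transcripts that Cufflinks assembled at these genes differed between the libraries. The first is the level of RefSeq transcripts, which is mean depth multiplied by transcript length, in parts per 1000000 of the library total (ppm). The second adds the transcripts that Cufflinks assembled in each library, over the annotated exons of the gene. The third is the number of reads on annotated splice junctions, in ppm of all junction reads of the library, which does not depend on how reads were shared among transcripts. The median log2 ratio over all genes was 0.06, 0.08 and 0.17 by these measures, so junction ratios are also given relative to the median gene. In bulk RNA, less RNA per cell and fewer cells of a type cannot be told apart.

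By RefSeq transcripts 1 of the 9 genes was at least 1.5-fold higher in the knockdown library and 2 were at least 1.5-fold lower, against 19% and 10.8% of all 10036 genes, or 29.8% in either direction. With all transcripts none of the 9 was past 1.5-fold in either direction, against 18.6% of 12256 genes (14.8% higher and 3.83% lower). By junction reads 1 was past it, against 19.2% of 10867 genes (17.9% higher and 1.36% lower). The gene past it by junction reads was Upf3b, and the 2 that were lower by RefSeq transcripts, Smg1 and Smg6, had positive log2 ratios by the other measures. The median log2 ratio of the 9 genes was -0.23, -0.07 and 0.09 in the same order of measures. These shares were near or below the background over all genes, so the 9 genes did not stand out by number from the rest of the transcriptome.

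**Figure D1:**
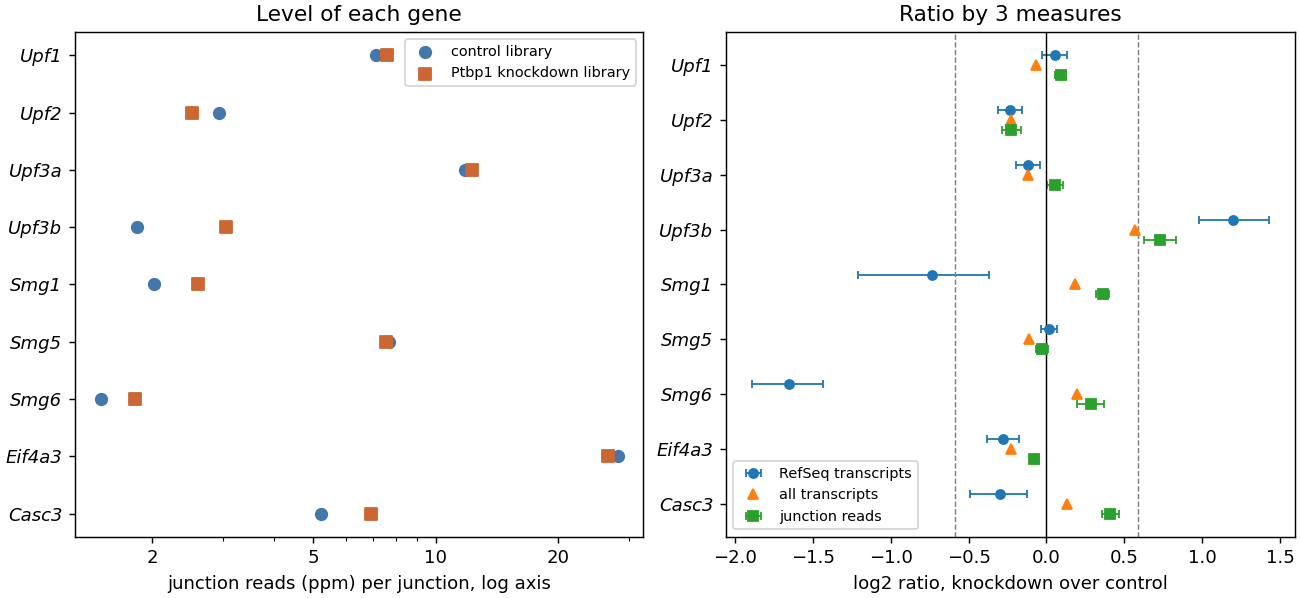
Left, the level of each of the 9 genes in ppm of junction reads per junction on a log axis, with circles for the control library and squares for the Ptbp1 knockdown library. Right, the log2 ratio of knockdown over control by RefSeq transcripts (bars from the Cufflinks bounds), by all transcripts and by junction reads (95% exact binomial bars for counting error), with dashed lines at 1.5-fold. Upf3b lies to the right of 0 by every measure, whereas Smg1 and Smg6 lie on opposite sides of 0 by RefSeq transcripts and by the other measures.

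Per junction, which allows genes of different length to be compared, the levels spanned from Smg6 at 1.496 ppm in the control library to Eif4a3 at 28.1. The control order from the top was Eif4a3, Upf3a at 11.8, Smg5 at 7.67, Upf1 at 7.14, Casc3 at 5.21, Upf2 at 2.92, Smg1 at 2.02, Upf3b at 1.84 and Smg6. In the knockdown library Upf3b stood at 3.05, above Smg1 at 2.60 and Upf2 at 2.50, and Upf1 and Smg5 exchanged places at 7.60 and 7.53. With 1 library each, no spread over samples says which neighbours differ.

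Upf1 was nearly level between the libraries. Its RefSeq level was 83.9 ppm in the control against 87.1 in the knockdown library, and its junction reads were 12212 and 10191. These gave log2 ratios of 0.05 (Cufflinks bounds -0.03 to 0.13) and 0.09 (95% interval 0.05 to 0.13). With all transcripts the ratio was -0.07, and relative to the median gene the junction ratio was -0.08, so the sign of this small difference depended on the measure and the scaling. The gene lies at chr8:72855421-72877172 on the minus strand, and 14 of its 23 junctions with at least 40 reads were higher in the knockdown library.

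Upf2, the bridging factor, was the lowest of the 9 by junction reads. Its RefSeq level was 55.0 ppm in the control against 46.9 in the knockdown library, and its junction reads were 5004 and 3357. The log2 ratios were -0.23 by both transcript measures and -0.22 (95% interval -0.29 to -0.16) by junction reads, or 0.856-fold, which was -0.39 relative to the median gene. No more than 3 of its 23 junctions were higher in the knockdown library. In this gene the 3 measures gave nearly the same value, and its junction ratio lay at percentile 11.1 of all genes.

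The paralogs Upf3a and Upf3b, which can each join UPF2 to the exon junction complex, differed in direction by RefSeq transcripts. Upf3a stood at 45.7 ppm in the control and 42.2 in the knockdown library, with 7030 and 5723 junction reads. Its log2 ratio was -0.12 by transcripts and 0.05 (95% interval 0.00 to 0.11) by junction reads, which turned to -0.11 relative to the median gene. Upf3a was thus close to level by each measure.

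Upf3b, an X-linked gene at chrX:34631673-34650335, was the only one of the 9 that was higher in the knockdown library by every measure and scaling tried. Its RefSeq level was 8.67 ppm in the control and 19.9 in the knockdown library, a log2 ratio of 1.20 with Cufflinks bounds of 0.98 to 1.43. Assembled transcripts took 40.5% of its level in the control and 8.11% in the knockdown library, and with them included the levels were 14.6 and 21.6 and the ratio 0.57. Its junction reads were 1367 and 1776, or 1.66-fold after scaling (95% interval 1.54 to 1.78), a log2 ratio of 0.73 that was 0.56 relative to the median gene. The size of the Upf3b difference therefore lay between 0.56 and 1.20 across these measures, past 1.5-fold by RefSeq transcripts and junction reads and just under it by all transcripts or relative to the median gene. The deposited gene FPKM, which covers loci assembled separately in each library, gave 0.14. Each of its 9 junctions with at least 40 reads was higher in the knockdown library, by log2 ratios of 0.46 to 1.21. The lowest count among them was 63 reads in the control and 114 in the knockdown library, at the junction with the highest ratio. The junction ratio of Upf3b lay at percentile 87.7 of all genes, so many other genes had higher ratios.

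For Smg1 and Smg6 the ratio differed strongly between RefSeq transcripts alone and all transcripts. The RefSeq level of Smg1 was 153 ppm in the control and 91.8 in the knockdown library, a log2 ratio of -0.74. In the knockdown library alone, Cufflinks assembled a near full-length transcript that differed from the RefSeq model, and assembled transcripts took 47.3% of the level there and 0% in the control. With all transcripts the levels were 153 and 174 and the ratio 0.19. Junction reads of Smg1 numbered 9312 and 9380, a log2 ratio of 0.36 or 1.29-fold, and 0.19 relative to the median gene. Of its 62 counted junctions 55 were higher in the knockdown library, so the RefSeq ratio ran against the reads on the gene's own splice junctions.

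For Smg6 the RefSeq level was 39.3 ppm in the control and 12.5 in the knockdown library, a log2 ratio of -1.65, the lowest of the 9 genes. Assembled transcripts took 4.56% of its level in the control and 73.4% in the knockdown library, and with them the levels were 41.2 and 47.1 and the ratio 0.19. Its 2114 and 2016 junction reads gave 0.28, or 0.11 relative to the median gene. As for Smg1, the RefSeq value and the reads over the whole gene pointed in opposite directions.

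The junction reads of Smg6 were uneven along the gene, which lies at chr11:74739325-74977950 on the plus strand. Stretches were delimited after the values were seen, and their ratios are a description. The first 5 junctions averaged 125 reads in the control and 93.0 in the knockdown library, and the middle 8, some of them under 40 reads, averaged 24.5 and 18.8. The last 5 junctions, beyond an intron of 85229 bases, averaged 249 and 267. The last stretch thus carried 10.2-fold the mean reads of the middle one in the control and 14.2-fold in the knockdown library. The log2 ratio of knockdown over control was -0.07 (95% interval -0.25 to 0.10) in the first stretch and -0.03 (-0.35 to 0.28) in the middle. It was 0.84 (0.28 to 1.41) on the junction over the long intron, from 47 and 66 reads, and 0.45 (0.34 to 0.56) in the last stretch. The higher reads in the knockdown library were therefore found from the long intron onward, and 3 assembled transcripts of the knockdown library and 1 of the control library began inside that intron. Whether a separate start of transcription lies there was not tested.

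**Figure D2:**
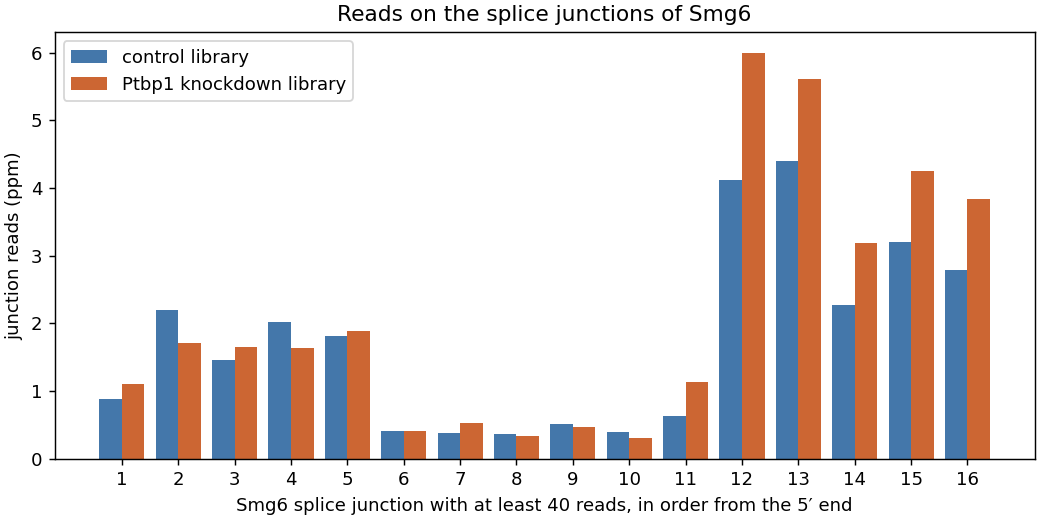
Reads on each Smg6 junction with at least 40 reads over both libraries, in ppm of junction reads and in order from the 5′ end, with paired bars for the control and the Ptbp1 knockdown library (no replicates, no error bars). The last 5 junctions are the highest in both libraries, and all of them are higher in the knockdown library.

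Smg5, the adaptor of phosphorylated UPF1, was level. Its RefSeq level was 121 ppm in the control against 123 in the knockdown library, and its junction reads were 11984 and 9216. The log2 ratios were 0.02, -0.11 with all transcripts and -0.03 by junction reads, with 11 of 21 junctions higher. Relative to the median gene its junction ratio was -0.20.

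The core exon junction genes went opposite ways by junction reads. Eif4a3 had 25077 junction reads in the control and 18625 in the knockdown library, a log2 ratio of -0.08 or 0.948-fold, and only 2 of its 11 junctions were higher. By RefSeq transcripts its levels were 36.2 and 29.9 ppm, a ratio of -0.28, and all transcripts gave -0.23. Casc3 had 5809 and 6053 junction reads, a ratio of 0.41 or 1.33-fold, with 12 of 13 junctions higher. Its RefSeq levels were 111 and 90.3 ppm, a ratio of -0.30, whereas all transcripts gave 0.13 after 25.8% of the knockdown level and 0% of the control level went to an assembled transcript. Eif4a3 was therefore slightly lower by every measure scaled to the library total, and the sign for Casc3 depended on whether assembled transcripts were counted.

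Along Casc3 the ratio was also higher toward the 3′ end. With its 13 junctions split in order into an earlier and a later set of like size, the median was 0.22 in the earlier and 0.59 in the later set, a difference of 0.37. Among 5611 genes with at least 8 such junctions the median difference was 0.02 with quartiles of -0.08 and 0.12, and Casc3 lay at percentile 96.7 and Smg6 at 97.6. Smg1 followed with 0.24 (percentile 91.1) and Upf3b with 0.21 (percentile 88.6), whereas Eif4a3 stood at -0.08 (percentile 25.2). Of the 9 genes, 8 had higher median ratios in the later than in the earlier junctions, but the median difference of all genes, 0.02, was also positive. Upf1 lay at percentile 85.1, Smg5 at 77.5, Upf2 at 64.4 and Upf3a, the smallest of the 8 at 0.03, at 53.3. A positive difference was thus common over all genes. Its size was above the upper quartile of 0.12 in Smg6, Casc3, Smg1, Upf3b, Upf1 and Smg5. The share of all genes with a positive difference was not counted. The part of RNA integrity in these differences was not tested.

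**Figure D3:**
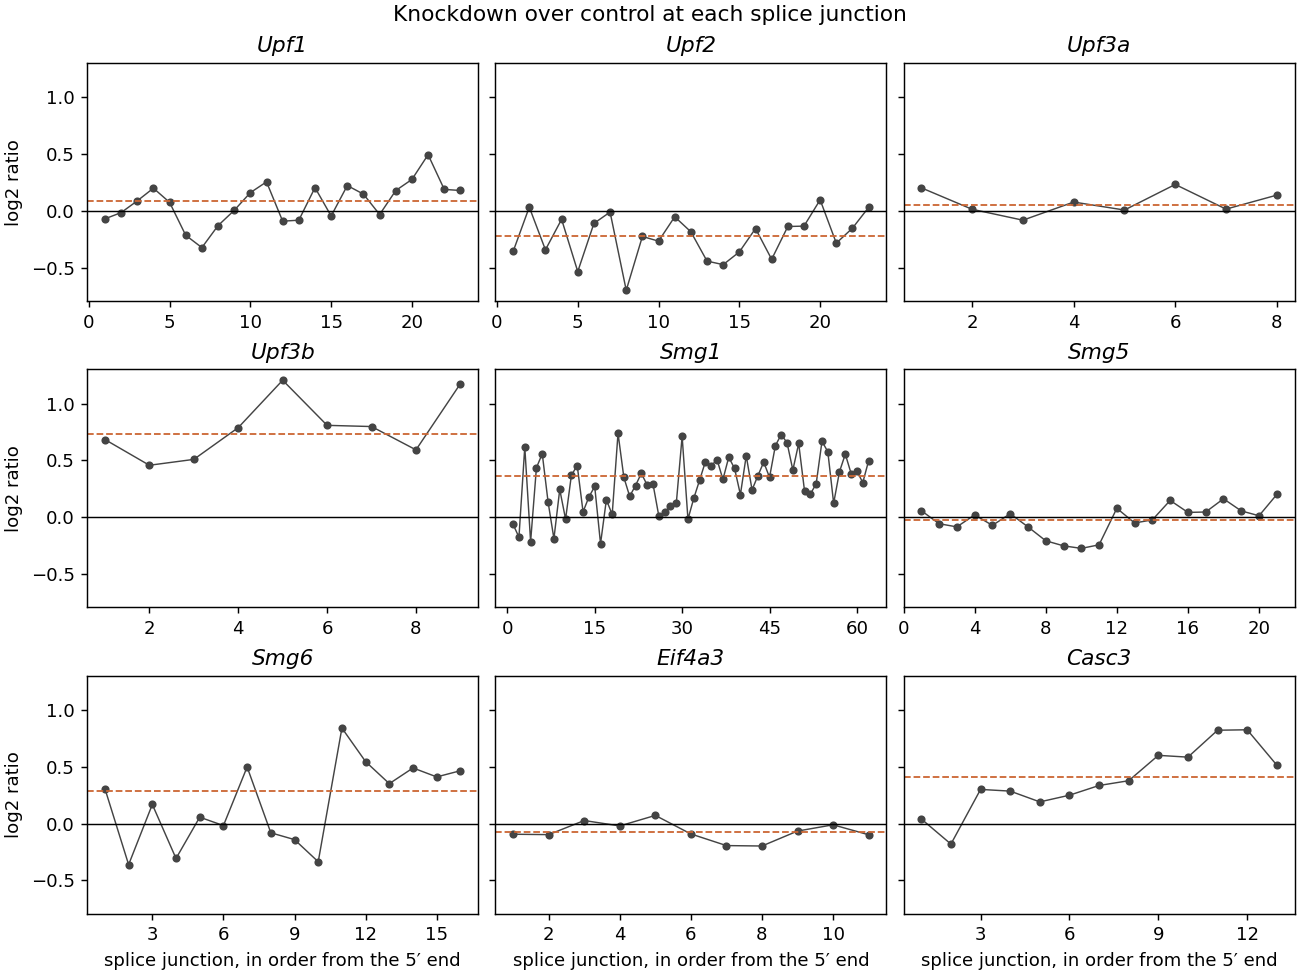
Log2 ratio of knockdown over control at each splice junction with at least 40 reads, in order from the 5′ end, in 1 panel per gene, with the ratio of the gene's summed junction reads as a dashed line (no replicates). All points of Upf3b are above 0, most points of Upf2 are below it, and the points of Casc3 climb along the gene.

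Splicing was read from exon trios, which are sets of 3 neighbouring exons with the middle one included or skipped, or with competing splice sites. PSI is the percent of transcripts that include the middle segment, as SpliceTrap estimated it, and delta PSI is knockdown minus control. The spans of the 9 genes held 206 trios, of which 205 had at least 20 reads in each library. These were 193 of the constitutive class, 4 cassette, 3 alternative acceptor and 5 alternative donor trios, with no retained intron. Their median reads were 1005 in the control and 882 in the knockdown library.

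Most exons of the 9 genes were included at a like rate in both libraries, as were most constitutive-class exons of all genes. PSI was at least 95 in both libraries in 192 of the 205 trios, against 87.1% of all trios, and delta PSI was under 1 point in 190, against 85.2%. In the constitutive class these were 188 and 185 of 193 trios, against 93.7% and 90.5%. It reached 5 points in 3 trios, against 5.39% of 145628 trios over all genes. With a 95% interval of the junction PSI difference on the same side of 0 as a second criterion, 1 trio passed, against 1.48% of all trios. In the constitutive class alone 2 of 193 trios reached 5 points, against 2.97%, and 1 met both criteria, against 0.516%. By Fisher's exact test on junction reads, which compares the reads of these libraries and not the conditions, 0 of 205 passed an adjusted p of 0.05 over all trios, against 0.591%. At an unadjusted p under 0.05 there were 3, against 2.63% of all trios.

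Skipping of constitutive exons was rare in the 9 genes. Junction reads that skipped a constitutive-class exon made up 0.183% of the relevant reads in the control and 0.231% in the knockdown library. Over all genes the shares were 0.276% and 0.347%. Both sets were thus slightly higher in the knockdown library, and the pooled reads of the 9 genes lay below the transcriptome in each. Single genes differed from this pool. Upf1, at 0.387% and 0.515%, and Upf2, at 0.783% and 0.960%, lay above the shares over all genes in both libraries. Each of the other genes lay below them.

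**Figure D4:**
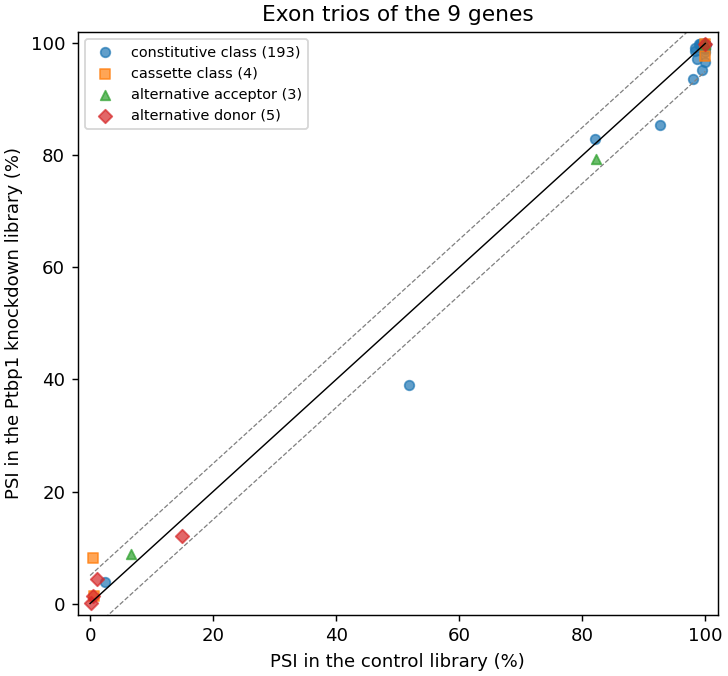
PSI in the control library against PSI in the Ptbp1 knockdown library for the 205 trios of the 9 genes, with marks for the class of trio, a solid line of equality and dashed lines 5 points from it. Most trios sit in the corner above 95, and 3 lie outside the dashed lines.

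The trio that met both criteria was the Upf1 exon printed above. PSI was 92.6 in the control and 85.5 in the knockdown library, a delta PSI of -7.1, from 1005 and 737 trio reads. In the control library 515 reads joined the preceding exon to it, 83 joined its downstream donor to the next exon and 16 skipped it. In the knockdown library the same junctions held 344, 46 and 24 reads. These are the counts within this trio. The largest deposited counts were 533 in the control and 360 in the knockdown library at the preceding junction, and 83 and 52 at the downstream donor. Inclusion from the average of its flanking junctions was 94.9% and 89.0%, a difference of -5.88 points (95% Newcombe interval -11.1 to -1.28), with a two-sided Fisher's exact p of 0.0125 and an adjusted p of 0.860 over all trios. Skipping reads in this trio were thus more frequent in the knockdown library, but the difference did not pass adjustment. A separate trio of the 85-base form of the exon, which ends at the upstream donor, had a delta PSI of 0.5. The lower PSI was thus seen for the 118-base form only.

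Since the exon has 2 donors, this average undercounts inclusion, and 2 further counts were made after the data were seen. With the junction from the preceding exon, which both donors share, inclusion was 97.0% and 93.5%, a difference of -3.51 points (interval -6.72 to -0.726, Fisher's exact p 0.0137). With the downstream junctions of both donors summed it was 97.0% and 94.3%, a difference of -2.74 points (interval -5.61 to -0.167, Fisher's exact p 0.0495). All these counts put inclusion lower in the knockdown library, by under 5 points once both donors were counted. They share the same skipping reads, 16 in the control and 24 in the knockdown library, so their agreement is not further evidence. The p-values of the 2 further counts were not adjusted. The exon is coding, and its 118-base form and 85-base form both have lengths that are not multiples of 3.

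The donor choice itself differed little. In the control library 83 reads used the downstream donor and 441 the upstream donor, and in the knockdown library 46 and 351. The largest deposited count at the downstream donor in the knockdown library was 52, which the shares below do not use. Use of the downstream donor was 15.8% and 11.6%, a difference of -4.25 points with an interval of -8.63 to 0.295 that includes 0 (Fisher's exact p 0.0690). The capitals in the printed exon, 11 codons long, were thus used by a minority of Upf1 transcripts in both libraries. Cufflinks gave the RefSeq transcript with the long form 12.6% of the depth in the control and 10.7% in the knockdown library.

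PTBP1 binds pyrimidine-rich RNA, so the 100 bases before each exon were read for pyrimidines and for the letters TCTT and CTCTCT on the transcript strand, where a CTCTCT does not contain a TCTT. The Upf1 window was 52% pyrimidine, at percentile 28.1 of the constitutive-class exons over all genes, and held 0 copies of either. Before 167 constitutive-class exons of the 9 genes, TCTT was present in 68.3% and CTCTCT in 7.78%, against 65.0% and 9.75% of 100320 constitutive-class exons over all genes. The median pyrimidine share was 55% in both sets. Exons and the introns after them were not searched, and the printed Upf1 exon itself holds TCTT. The 0 copies thus concern the upstream window alone. A match is a description of these letters and not of binding.

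In Upf2 the 2 largest differences were in constitutive-class coding exons and rested on few skipping reads. The 109-base exon at chr2:5924591-5924699 had a PSI of 98.0 in the control and 93.6 in the knockdown library, from 6 and 9 skipping reads (Fisher's exact p 0.104). The 276-base exon at chr2:5948259-5948534 had 99.4 and 95.2, from 1 and 6 skipping reads, a junction difference of -3.86 points (interval -8.62 to -0.846, Fisher's exact p 0.0120, adjusted p 0.836). Both had lower PSI in the knockdown library and neither reached 5 points. At the tandem acceptors printed above, 3 bases apart, 233 reads used the upstream site and 52 the downstream one in the control, and 166 and 43 did in the knockdown library. The PSI of the 3 bases was 82.3 and 79.4, and the junction difference was -2.33 points (interval -9.56 to 4.62, Fisher's exact p 0.564). The CAG between the sites, 1 codon long, was thus kept in most Upf2 transcripts of both libraries, with no difference detectable at this depth. Another annotated pair of acceptors in Upf2, also 3 bases apart, had a PSI of 99.9 in both libraries, from a trio that counted 0 reads at the downstream site. The largest deposited counts of the same junctions, taken after the data were seen, were 179 at the upstream and 36 at the downstream site in the control and 126 and 21 in the knockdown library. By these counts the downstream site was used in 16.7% and 14.3% of reads, and use of the upstream site differed by 2.46 points (interval -5.45 to 9.77, Fisher's exact p 0.560). The second site was thus in use in both libraries although the PSI did not show it.

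In Smg6 the largest delta PSI of the 9 genes, -12.8, fell on a constitutive-class exon of 202 bases at chr11:74867264-74867465. PSI was 51.9 in the control and 39.1 in the knockdown library, yet 0 reads skipped the exon in either library, and its inclusion junctions held 29 and 39 reads in the control and 18 and 53 in the knockdown library. The trio spans the middle and the last stretch of the gene, where reads stood at unequal levels in both libraries. Junction reads therefore gave no evidence of skipping at this exon. A 75-base cassette exon at chr11:74801238-74801312 had a PSI of 0.4 and 8.1, from 21 and 8 skipping reads, with an interval of the junction difference of -10.5 to 38.6. Its 50 and 22 trio reads could not show whether inclusion differed. The other cassette exons of Smg6, of 17 and 62 bases, had PSI of 0.6 and 1.4 and of 99.9 and 97.8.

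The alternative acceptor of Smg5 would add 31 bases, a length that is not a multiple of 3. In the control library 30 reads used it against 374 at the downstream site, and in the knockdown library 24 against 287. PSI was 6.6 and 8.9, and the junction difference was 0.291 points (interval -3.58 to 4.42, Fisher's exact p 0.887). Use of the site was thus a minor event of like size in both libraries. The cassette exon of Smg5, 99 bases long, had a PSI of 99.9 in both.

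Casc3 has a downstream donor that adds 31 or 34 bases to an early exon, depending on which of 2 upstream donors 3 bases apart it is set against. PSI of the 31-base segment was 0.4 in the control and 1.4 in the knockdown library, and PSI of the 34-base segment 1.1 and 4.3. Within the 31-base trio the downstream donor had 0 reads against 254 in the control and 5 against 248 in the knockdown library (Fisher's exact p 0.0303). The same junction was counted in other trios with up to 8 reads in the control and 9 in the knockdown library, against 260 and 251 at the upstream donor. With those counts its use was 2.99% and 3.46%, a difference of 0.476 points (interval -2.76 to 3.80, Fisher's exact p 0.809). The difference in the 31-base trio was thus absent from the larger counts of the same junction. No junction read supported the 3-base difference between the upstream donors.

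The remaining genes held no segment past 1 point of delta PSI. Delta PSI lay between -0.9 and 0.8 in the 62 trios of Smg1, between -0.1 and 0.3 in the 8 of Upf3a, between -0.1 and 0.2 in the 9 of Upf3b and between 0.0 and 0.1 in the 11 of Eif4a3. The largest in Smg1 was a 151-base exon with a PSI of 99.9 and 99.0, and the largest in Upf3a a 107-base exon with 98.3 and 98.6. The 111-base exon that led in Upf3b had 99.7 and 99.9. In Eif4a3 a 67-base exon had 99.8 and 99.9, and an alternative donor of 4 bases had a PSI of 0.1 in both libraries against 2422 and 1775 reads at the main donor. The higher level of Upf3b was thus not accompanied by a measured difference in the inclusion of its annotated exons.

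Other genes of the pathway were read from lists. Of 12 other decay factors, 1 was past 1.5-fold by junction reads, Gspt2, a release-factor gene, with 86 reads in the control and 131 in the knockdown library (log2 ratio 0.96). The median of the list was 0.17, equal to that of all genes to 2 decimals, and the lowest was the release-factor gene Etf1 at -0.30. By RefSeq transcripts Pnrc2 was higher by 0.68 and Dhx34 lower at -1.24, and by all transcripts these were 0.37 and 0.08. As with Smg1 and Smg6, the low value of Dhx34 was present only when assembled transcripts were left out.

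Of 14 core and peripheral exon junction genes, 0 were past 1.5-fold by junction reads, and no test could be made with 1 library each. Their median was -0.05, from Ncbp2, the small cap-binding subunit, at -0.42 to Pnn at 0.21, which was below the median of 0.17 over all genes. By RefSeq transcripts Acin1 stood at -1.01, but at -0.09 with all transcripts, and Ncbp2 was at -0.56 by RefSeq transcripts and -1.32 with all transcripts. Relative to the median gene, the junction reads of 1 gene of the list, Ncbp2, were past 1.5-fold. Rbm8a, which encodes the core subunit Y14, was at -0.41 by junction reads and Magoh, its partner, at -0.12. By junction reads these core genes and Eif4a3 stood below the median gene, whereas Casc3 stood above it. With all transcripts Magoh was at 0.25, above the median of 0.08, and by RefSeq transcripts Casc3 was at -0.30, below the median of 0.06. Rbm8a and Eif4a3 stood below the median by each of these measures.

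Of 15 transcripts known as decay substrates, 3 were past 1.5-fold by junction reads, all higher in the knockdown library. Gadd45b, a stress-response gene, had 613 reads in the control and 1044 in the knockdown library (1.12), Ddit3, a stress-induced transcription factor, had 2525 and 3423 (0.79), and the cell-cycle inhibitor Cdkn1a had 569 and 686 (0.62). The median was 0.20 against 0.17 over all genes, and the lowest was Srsf3 at -0.25. The share of 3 in 15 was near the background of 17.9% for higher genes. By RefSeq transcripts Chac1 at 0.86, Ddit3 at 0.71 and Gadd45b at 0.63 were higher, and Atf4 at -1.01 and Srsf2 at -0.92 lower, whereas Atf4 and Srsf2 had junction ratios of 0.20 and -0.04. With all transcripts Gadd45b, at 1.43, and Ddit3 were past 1.5-fold.

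**Figure D5:**
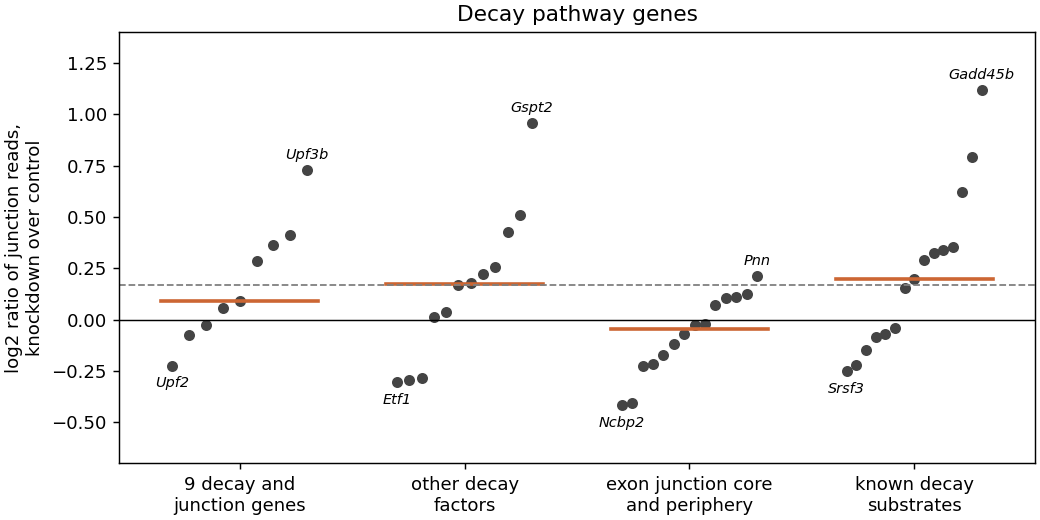
Log2 ratio of junction reads of each gene in the 9 decay and exon junction genes and in the 3 wider lists, with a bar at the median of each list and a dashed line at the median of all genes, 0.17 (1 library per condition, no error bars). Upf3b, Gspt2 and Gadd45b lead their lists, and the exon junction list lies lowest.

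Splicing of the wider lists was read with the same criteria. Cassette exons that met both criteria, with no adjusted p under 0.05, had PSI values in the control and the knockdown library as follows. They were found in Dcp1a of the other decay factors (88.8 and 78.0), in Rnps1 (59.0 and 64.4), Srrm1 (16.2 and 22.2) and Wibg (40.1 and 26.4) of the exon junction genes, and in Eif4a2 of the decay substrates (73.2 and 78.6). Trios that met both criteria were 2 of 222, 4 of 181 and 1 of 98 in these lists, or 0.901%, 2.21% and 1.02% against 1.48% of all trios. The 4 trios of the exon junction genes include the same Rnps1 exon 2 times, with PSI of 59.7 and 64.9 in its other trio. They are thus not 4 separate exons.

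In the decay substrates 1 trio passed the adjusted p without reaching 5 points. It was a cassette exon of 456 bases in Srsf3, a splicing factor gene on the list of decay substrates, at chr17:29176399-29176854 on the plus strand. PSI was 7.8 in the control against 11.3 in the knockdown library. Its inclusion junctions held 176 and 82 reads against 2919 that skipped it in the control, and 233 and 106 against 2018 in the knockdown library. Junction inclusion was 4.23% and 7.75%, a difference of 3.52 points (95% interval 2.21 to 4.88, Fisher's exact p 8.74e-08, adjusted p 3.65e-05). The exon was thus a minor form in both libraries and more frequent in the knockdown reads.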

How the data were processed

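RNA-seq of N2A cells was analysed from 1 control and 1 Ptbp1 knockdown library, grouped by their labels. The submitters' processing notes name CASAVA, TopHat and Cufflinks on mm9. The authors deposited, from Cufflinks, FPKM with bounds for genes and isoforms, and for isoforms the coverage, as mean depth per base. Transcripts were assembled in each library separately. The authors deposited from SpliceTrap the inclusion ratio of each trio as a fraction, before and after correction, the junction read count, not normalized, and a coverage signal.

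RefSeq identifiers were matched to symbols for 26472 of 27601 RefSeq isoforms in the control and 26475 of 27604 in the knockdown library. Levels were scaled to parts per 1000000 (ppm). Genes under 1 ppm in both libraries and 472 genes listed at 0 in 1 library were left out. A RefSeq transcript that Cufflinks had extended counted as that transcript. Gene spans came from GENCODE vM1 on NCBIM37 (mm9). The largest deposited count was taken for each distinct annotated junction, and a gene needed 20 junction reads in each library. PSI was the corrected fraction multiplied by 100. For junction PSI the inclusion junctions were averaged, and the average was divided by itself plus the skipping junction; acceptor and donor trios used only the spliced junction of each site. Intervals were Wilson, Newcombe for differences and exact binomial for expression ratios, at 95%. Two-sided Fisher's exact tests compared the reads of both libraries, adjusted by Benjamini-Hochberg over 145628 trios. PCR duplicates were not marked by molecular identifiers. The members and lists were chosen with earlier results of these data known. Named items were all 9 genes, their trios of non-constitutive class, the trio with the largest delta PSI in each, trios that met both criteria, and list genes past 1.5-fold with the highest and lowest of each list by junction reads. The 276-base Upf2 exon, the Smg6 stretches, Rbm8a and Magoh were chosen after their values were seen. Python 3.11.15, pandas 2.3.3, scipy 1.17.1 and bedtools 2.31.1 were used, and the computations were tested on simulated data. Other scalings, minimum reads, PSI definitions and thresholds were tried as alternatives. Some items of the lists are not reported here.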

Additional observations from a re-analysis of the deposited data

How the results depend on the processing

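The RefSeq log2 ratios of Smg1 and Smg6, -0.74 and -1.65, changed sign under these alternatives. They were 0.19 and 0.19 with all transcripts, 0.0069 and 1.01 by deposited gene FPKM, 0.44 and 1.4 by gene FPKM divided by the library median, 0.36 and 0.28 by junction reads, and 0.19 and 0.11 by junction reads scaled to the median gene. The junction measures, the values without extended transcripts the shared Upf1 junctions and the largest counts of competing sites were chosen after seeing the data. Genes of the 9 past 1.5-fold went from 3 to 0 with all transcripts, 1 by junction reads and 0 by junction reads scaled to the median gene. Without extended RefSeq transcripts the count was 1, because Upf3b and Smg6, like Upf2, then had no ratio. That setting left 6076 genes measured against 10036. The median of the 9 genes went from -0.23 to -0.0655 with all transcripts, 0.19 by gene FPKM divided by the library median, 0.0906 by junction reads and -0.0789 by junction reads scaled to the median gene. Other decay factors past 1.5-fold went from 2 to 0 with all transcripts or either gene FPKM, and to 1 by junction reads with either scaling or at 2-fold. Exon junction genes went from 1 to 3 scaled to the median gene, 4 by gene FPKM, and 0 without extended transcripts or by junction reads. Decay substrates went from 5 to 2 with all transcripts, without extended transcripts or by scaled junction reads, 1 by gene FPKM or at 2-fold, and 3 by gene FPKM divided by the library median or by junction reads. Member trios at 5 points went from 3 to 6 with PSI before correction and 1 at 10 points, and those that met both criteria from 1 to 0 at 10 points. Of 69 alternative log2 ratios of single genes, 32 lay within the Cufflinks bounds of the RefSeq ratio and 27 lay outside. The other 10, all of Smg1 and Smg6, had the opposite sign. Sign changes were counted only for genes past 1.5-fold by RefSeq transcripts. Smaller ratios also changed sign, such as Casc3 from -0.30 to 0.41 by junction reads. Of 60 alternative delta PSI values, 55 lay within the junction interval of the trio, and 5 lay outside or had no interval. The 55 include the 202-base Smg6 exon, at -12.8 by SpliceTrap and 0 by junction reads. The cause of these changes was not tested. No paired analysis was possible because each condition had 1 library. Gene FPKM for Casc3 and Smg6 joined loci that the libraries assembled differently, and its scale is unusual, so it was used for ratios alone. With 1 library per condition, biological and technical spread cannot be told apart from the knockdown, and exons with few skipping reads, such as those of Upf2 and Smg6, were limited by depth.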
